A study of Mus musculus with 12 samples.

Results

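The genes described here mark the cerebral blood vessel wall. They are 32 names, listed for their known roles in endothelial cells (25 genes) and in mural cells (7 genes), and every one was found among the 55678 gene names of the table by an exact match, with its transcript rows summed. RNA of the medial prefrontal cortex was sequenced in 12 samples, 4 groups of 3. B6 here is C57BL/6JmsSlc and BALB/c is BALB/cCrSlc, both inbred strains with no transgene. Mice of each strain were either handled without restraint (control) or held in a restrainer for 6 h a day on 21 days running (chronic restraint stress, CRS). Mice used for RNA sequencing were 9 to 10 weeks old, their sex is not given, and the tissue was a 1.5 mm punch of frontal coronal sections taken once behavioural tests had ended. A bulk punch holds every cell type of the tissue, so fewer vascular cells and less RNA per vascular cell cannot be told apart. The design poses the question whether strain, restraint or their combination goes with different levels of these vascular transcripts.

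Brain endothelial cells form the blood-brain barrier by sealing their contacts with tight junctions, by holding back vesicular transport, and by carrying nutrients and drugs across the cell with dedicated transporters. Claudin-5, encoded by Cldn5, is the dominant claudin of these junctions, and occludin (Ocln) sits beside it. Pericytes and other mural cells share the vessel's basement membrane, receive PDGF-B from the endothelium through Pdgfrb, and keep the barrier closed.

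Promoter sequences of both tight-junction genes are shown because the summed Ocln value was called lower in BALB/c and Cldn5 was not called. Each line gives the 250 bases before the annotated start, 5′ to 3′ on the gene's strand, from RefSeq (GRCm38.p6). Capitals mark CCGCCC, the reverse complement of the GC box GGGCGG. The Cldn5 window is chr16:18776597-18776846 on the plus strand and the Ocln window shown is chr13:100552719-100552968 on the minus strand. Ocln has 2 annotated windows, of which 1 is shown, and Cldn5 has 1.
Cldn5: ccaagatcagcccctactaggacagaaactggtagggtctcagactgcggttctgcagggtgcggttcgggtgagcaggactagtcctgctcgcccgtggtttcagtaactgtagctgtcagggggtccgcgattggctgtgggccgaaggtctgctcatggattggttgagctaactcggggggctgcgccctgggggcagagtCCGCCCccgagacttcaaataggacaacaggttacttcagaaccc
Ocln: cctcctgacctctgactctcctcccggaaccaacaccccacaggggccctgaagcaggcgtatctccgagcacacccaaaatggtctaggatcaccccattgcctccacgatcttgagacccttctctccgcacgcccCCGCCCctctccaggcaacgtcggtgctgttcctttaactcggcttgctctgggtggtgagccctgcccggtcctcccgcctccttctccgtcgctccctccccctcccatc
Each window shown held 1 match of GGGCGG, searched on both strands. The same letters occurred in 32.7% of all 32851 promoter windows of this length and in 13 of the 27 windows available for 22 of the listed genes. The core letters GGAA of ETS factor motifs, also searched on both strands, had no match in the Cldn5 window and 2 in the Ocln window, and 93.4% of all windows held them. These are letter matches in the reference genome, and binding was not measured.

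Expression is given as TPM, each transcript's share of a fixed library total, which is already corrected for transcript length, so levels of different genes can be set side by side. All 32 genes passed the filter of at least 1 TPM in at least 3 libraries, and 29 reached 1 TPM in all 12. The endothelial marker genes Cldn5, Pecam1, Cdh5 and Flt1 and the mural genes Pdgfrb, Rgs5, Vtn and Higd1b were above 2 TPM in every library. The endothelial marker gene Tie1 fell to 1.64 TPM in BALB/c control 9. The mural genes Kcnj8 and Abcc9 stayed under 2 TPM in every library, with highest values of 1.88 and 1.86 TPM. Anpep, also mural, ranged from 0.604 to 3.43 TPM. The highest mean over the 12 libraries was that of Egfl7, a secreted endothelial factor, at 52.7 TPM. It was followed by the mural gene Vtn (vitronectin) at 42.5, the glucose transporter gene Slc2a1 at 40.3, Cldn5 at 37.7, the mural regulator of G-protein signalling Rgs5 at 36.9 and Itm2a at 31.9 TPM. The ranges of these 6 genes over the 12 libraries all overlapped. Compared within each library, Egfl7, Vtn and Slc2a1 were each above Itm2a in all 12. Egfl7 ran from 35.5 to 66.9 TPM and Itm2a from 25.6 to 39.3 TPM. At the lower end, 13 genes averaged under 5 TPM, among them the junction cadherin gene Cdh5 at 4.24, Ocln at 3.56, Vwf at 3.13 and the forkhead factor gene Foxq1 at 1.16 TPM. The summed level of all 32 genes lay between 419.9 and 500.3 TPM, with group means of 474.2 ± 31.1 in B6 controls, 478.8 ± 15.9 in B6 CRS, 446.8 ± 23.3 in BALB/c controls and 455.2 ± 10.9 in BALB/c CRS (SD, n = 3).

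**Figure D1:**
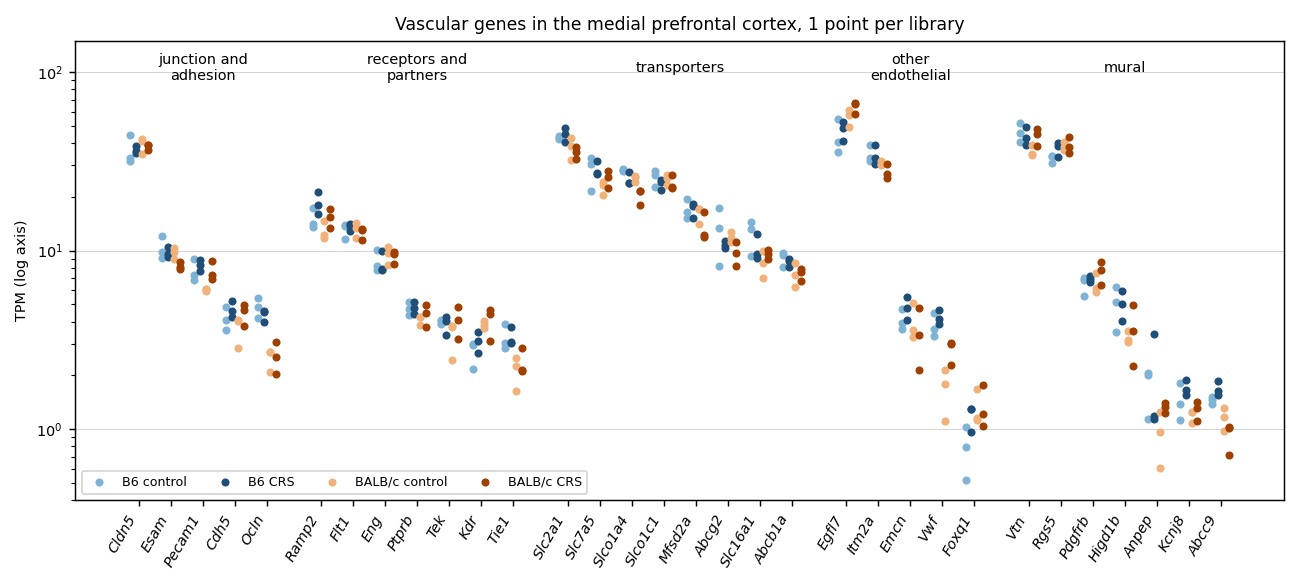
TPM of the 32 vascular genes on a log axis, 1 point per library, grouped by role and coloured by strain and treatment. The spread between genes, from Foxq1 near 1 TPM to Egfl7 at 52.7 TPM on average, is far larger than the spread between groups.

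Across the series, deposited columns each summed to 1000000 TPM, which keeps no read depth, so read depth is not known. Genes at 1 TPM or more numbered 14805 to 15542 per library. One library, number 12 of BALB/c CRS, gave 3.97% of its TPM to 18S ribosomal RNA against 0.0307% to 0.169% in the others. Oligodendrocyte and striatal marker genes were lower in BALB/c (5 of 5 in each list passed limma's test averaged over treatments), with summed levels of 2258 to 8773 TPM in B6 and 425 to 2796 TPM in BALB/c for the oligodendrocyte genes and of 163 to 2248 and 72.5 to 294.9 TPM for the striatal genes. No value of either list was at 0. Of the other marker lists, 3 of 5 choroid plexus genes and 2 of 5 astrocyte genes were called lower. So were 1 of 6 fibroblast and meningeal genes, 1 of 4 blood genes tested, 1 of 5 microglia genes and 1 of 5 neuron genes. Of the smooth-muscle genes 0 of 4 were called. Over all genes tested, 14.3% were called lower. In the neuron list 3 of 5 differences were above 0, with a median of 0.19. These values stand beside every strain difference below, and their part in it was not tested.

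Cldn5 separated none of the 4 groups in the deposited values and was called in no comparison. Its TPM was 31.95, 44.3 and 33.1 in the B6 controls numbered 2, 3 and 9, and 35.4, 36.4 and 38.4 in B6 CRS numbers 12, 13 and 14. In BALB/c it was 35.0, 41.2 and 42.5 in controls 5, 9 and 10, and 36.5, 39.2 and 39.1 in CRS numbers 12, 13 and 15. Every pair of groups overlapped, and the B6 controls alone spanned the range of all 12 libraries, with number 3 the highest of all. Cldn5 (chromosome 16, 18776847 to 18778262, GRCm38) has 1 row in the table, so its value does not depend on how reads were divided among rows of the same gene. CRS minus control was 0.03 (95% interval -0.25 to 0.31) in B6 and -0.04 (-0.32 to 0.24) in BALB/c on the log2(TPM + 1) scale. The difference between these, the strain by CRS interaction, was -0.07 (-0.46 to 0.33), and BALB/c minus B6 averaged over treatments was 0.09 (-0.11 to 0.29; limma, adjusted p = 0.529). Leaving out 1 library at a time moved the CRS difference in B6 between -0.06 and 0.17. After median-of-ratios scaling and after rescaling without mitochondrial, Bc1 and 18S RNA, all 3 BALB/c CRS libraries lay above all 3 B6 CRS libraries for Cldn5, which was not so in the deposited values.

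**Figure D2:**
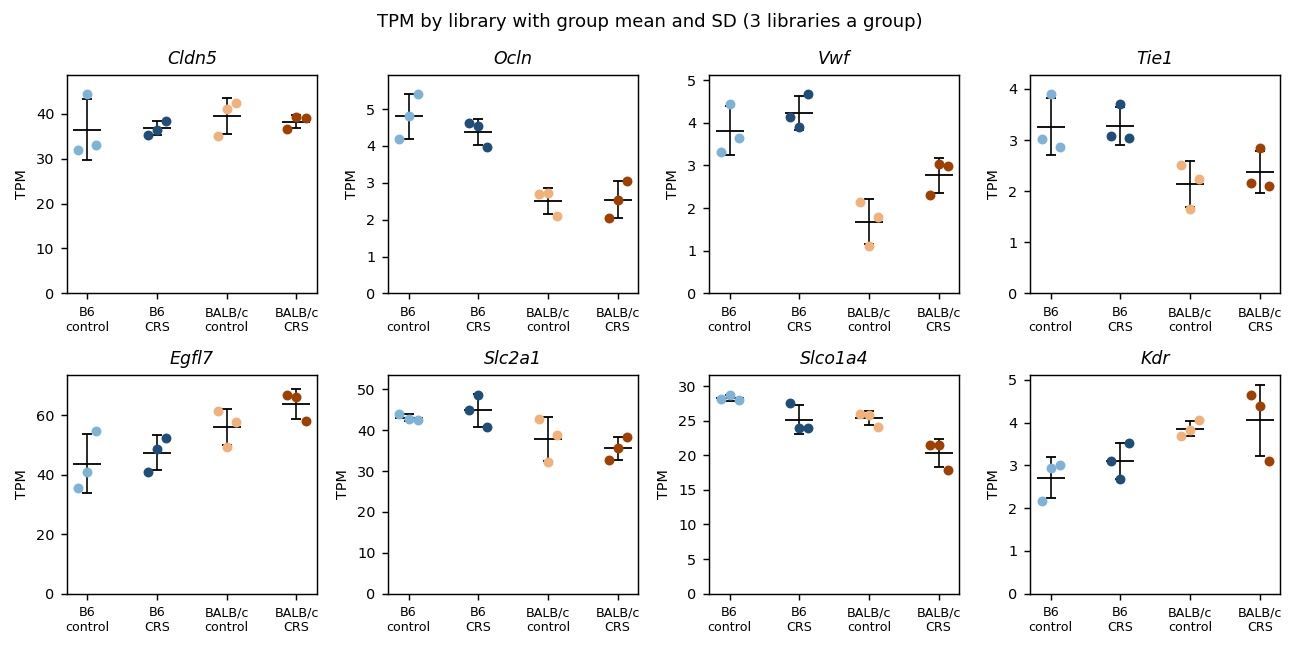
TPM by library (points), with the mean and SD of 3 libraries (bars), for Cldn5 and 7 other vascular genes in the 4 groups, on axes that start at 0. In these deposited values Cldn5 overlaps in all groups, Ocln, Vwf and Tie1 are lower in all 6 BALB/c libraries, and Slco1a4, with its rows summed, is lower after CRS in each strain.

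Restraint did not move any listed gene past the threshold of limma's test across 16423 genes (Benjamini-Hochberg adjusted p under 0.05). In B6, 0 of 32 were called and 0 had an unadjusted p under 0.05, where 0% of all genes were called and 4.82% had such a p. In BALB/c, 0 of 32 were called and 3 had an unadjusted p under 0.05 (Pecam1, Slco1a4 and Vwf), where 0.00609% of all genes were called and 3.03% had such a p. The interaction called 0 of 32, with 0 at an unadjusted p under 0.05, beside 0% and 2.70% of all genes. Averaged over strains 0 of 32 were called, 3 had an unadjusted p under 0.05 (Ramp2, Slco1a4 and Vwf), and over all genes the shares were 0.00609% and 5.17%. Differences ran from -0.23 to 0.30 in B6 and from -0.31 to 0.51 in BALB/c, with 20 genes higher and 12 lower in each strain. Their medians of 0.02 and 0.03 stood beside medians of 0.00 and 0.05 over all genes tested.

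**Figure D3:**
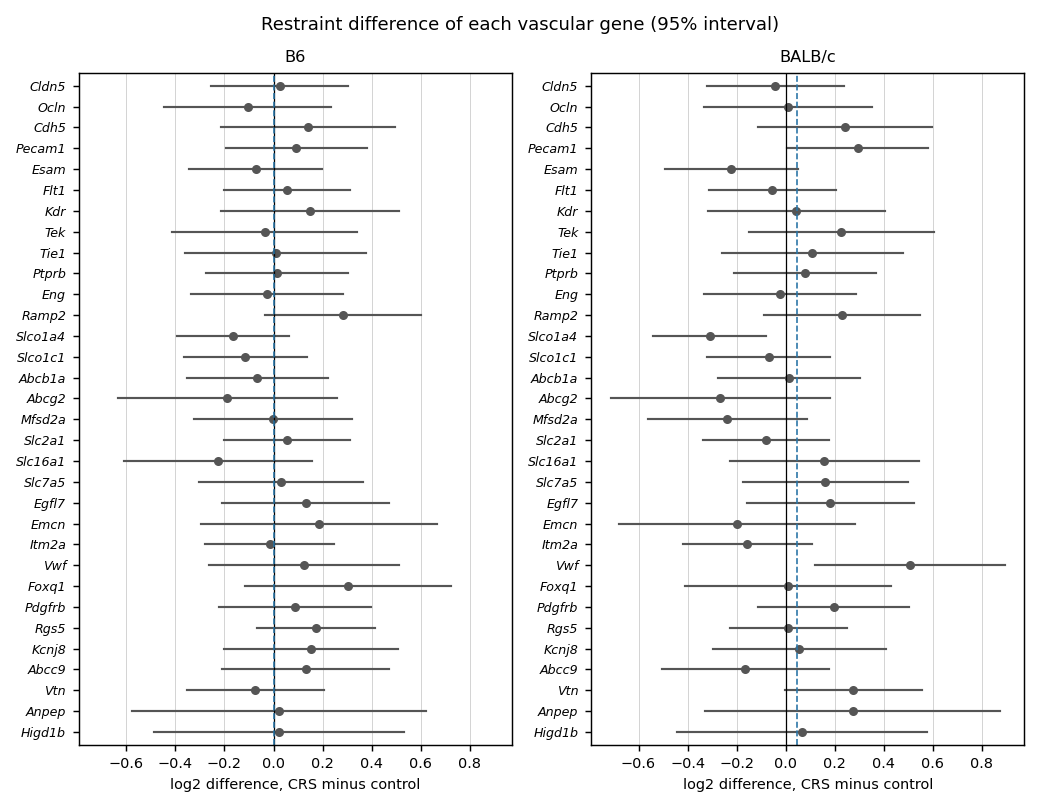
CRS minus control on the log2(TPM + 1) scale for each of the 32 genes in B6 (left) and BALB/c (right), with 95% intervals from limma; the dashed line is the median of all genes tested. Points lie between -0.23 and 0.30 in B6 and between -0.31 and 0.51 in BALB/c, and none passed the threshold.

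Slco1a4, which encodes an organic anion transporter of the brain endothelial membrane, was the 1 listed gene whose CRS libraries lay below all controls in both strains. Its TPM was 28.1, 28.8 and 27.9 in B6 controls and 27.5, 23.9 and 24.0 in B6 CRS. It was 26.0, 25.9 and 24.2 in BALB/c controls and 21.5, 21.5 and 17.9 in BALB/c CRS. Separation in the same direction in both strains occurred for 0.578% of all genes tested, and in B6 it was lost under both rescalings. The difference was -0.16 (SE 0.11) in B6 and -0.31 (SE 0.11) in BALB/c, and neither passed limma's test (adjusted p = 1 in both). With the highest of its 4 rows alone the BALB/c difference was 0.09, of opposite sign, and that in B6 was -0.15. In B6 a second gene, the mural potassium-channel subunit gene Abcc9, did not overlap between treatments, and it was higher after CRS. That makes 2 of 32 genes without overlap, where 8.33% of all genes did not overlap. Under median-of-ratios scaling that count was 0.

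Vwf, encoding von Willebrand factor of venous endothelium, and Pecam1, encoding an adhesion molecule of endothelial contacts, had higher values in all 3 BALB/c CRS libraries than in all 3 BALB/c controls, while Esam and Slco1a4 had lower ones. That is 4 of 32 genes, where 7.39% of all genes did not overlap. Pecam1 was 6.11, 6.11 and 5.95 TPM in BALB/c controls and 6.92, 8.77 and 7.35 TPM in BALB/c CRS, a difference of 0.29 (SE 0.13; limma, adjusted p = 1). Vwf differed by 0.51 (SE 0.18; limma, adjusted p = 1), from a mean of 1.68 ± 0.527 to 2.77 ± 0.413 TPM (SD, n = 3). In these libraries the 6 fibroblast and meningeal marker genes summed to 11.2 to 20.9 TPM in controls and 29.6 to 40.9 TPM after CRS, with no value at 0, and 6 of 6 had positive differences, none called. The part of meningeal tissue in the Vwf and Pecam1 differences was not tested.

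Strain separated a few of the genes. Averaged over treatments, limma called 5 of 32 genes, 4 lower in BALB/c (Ocln, Vwf, Tie1 and Slc2a1) and 1 higher (Egfl7), where 18.4% of all genes were called. In controls it called 2 (Ocln and Vwf) where 4.73% of all genes were called, and after CRS 1 (Ocln) where 7.7% were called, so each share stayed near or below the background. The averaged and the within-treatment comparisons share their libraries. Differences averaged over treatments were below 0 for 25 genes and above 0 for 7, with a median of -0.20 against -0.08 over all genes tested. Median-of-ratios scaling moved the median of all genes to 0.01 and that of the listed genes to -0.11, with 23 below 0 and 9 above. In controls that scaling moved the median of all genes from -0.10 to 0.01 and left 19 listed genes below 0 and 13 above, in place of 24 and 8. Over all genes, 78.0% of the averaged strain calls were lower in BALB/c with the deposited scaling and 53.5% with median-of-ratios scaling.

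**Figure D4:**
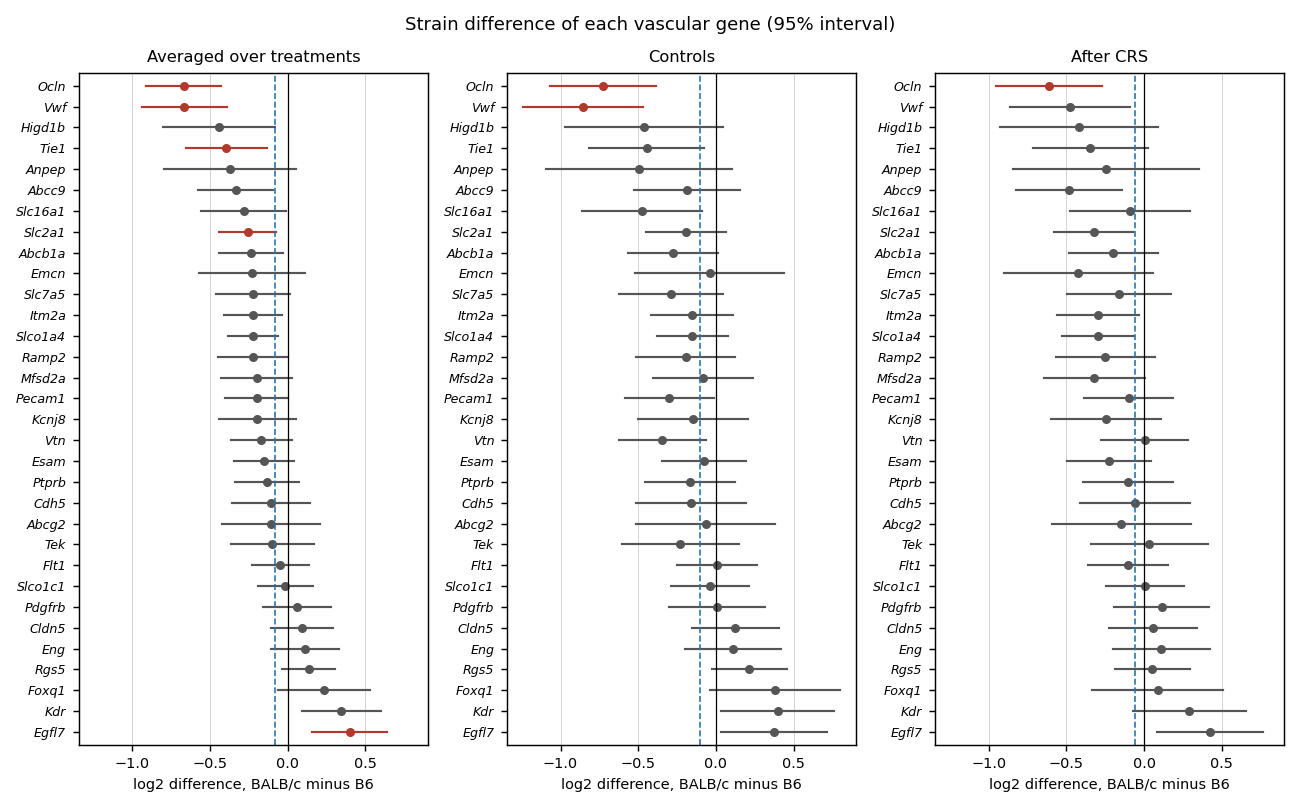
BALB/c minus B6 on the log2(TPM + 1) scale for each gene, averaged over treatments (left), in controls (middle) and after CRS (right), with 95% intervals; red marks a limma adjusted p under 0.05 and the dashed line is the median of all genes. Ocln is red in all 3 panels, Vwf in 2, and Tie1, Slc2a1 and Egfl7 only in the average; Cldn5 lies at 0.09 in the average.

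Among junction genes, Ocln (chromosome 13, 100496504 to 100552718) had the lowest p. Its summed TPM was 4.20, 4.81 and 5.40 in B6 controls, 4.62, 4.54 and 3.98 in B6 CRS, 2.71, 2.72 and 2.09 in BALB/c controls and 2.04, 2.53 and 3.06 in BALB/c CRS. The 6 BALB/c libraries lay below the 6 B6 libraries, as they did for 6.94% of all genes, and their mean was 55.0% of the B6 mean. The difference was -0.67 averaged over treatments (SE 0.11; limma, adjusted p = 0.00179), -0.73 in controls (SE 0.16; limma, adjusted p = 0.0199) and -0.61 after CRS (SE 0.16; limma, adjusted p = 0.0363). The averaged Ocln call held in 6 of 7 alternative settings and in all 12 fits that left out 1 library. In controls it held in 4 of 7 settings, lost with no filter (limma, adjusted p = 0.0538), the replicate block (0.0547) and the highest row, and in 10 of the 12 fits, lost without B6 control 3 (0.0666) or BALB/c control 10 (0.0988). After CRS it held in 4 of 7 settings, lost with no filter (0.0801), the replicate block (0.0766) and the highest row, and in 5 of the 12 fits, with adjusted p from 0.0294 to 0.128.

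The Ocln difference depended on which transcript rows were counted. The table holds 5 rows for this gene and does not name the transcripts. The highest row held 50.2% of the gene's TPM and ran from 0.766 to 3.35 TPM in B6 and from 0.612 to 2.31 TPM in BALB/c, so the strains overlapped. With that row alone the averaged difference was -0.20 (limma, adjusted p = 0.572) and the difference in controls was 0.19 (limma, adjusted p = 0.803), of opposite sign. After CRS it was -0.59 with that row (limma, adjusted p = 0.28), and the 3.35, 2.55 and 2.16 TPM of the B6 libraries lay above the 1.52, 1.99 and 0.878 TPM of the BALB/c libraries. Of the other 4 rows, 2 were listed above 0 in a single library each, both B6 controls, and another was at 0 in 6 of the 12 libraries. The remaining one averaged 1.06 TPM in B6 and 0.452 TPM in BALB/c. It ran from 0.283 to 1.82 TPM in B6 and from 0.308 to 0.554 TPM in BALB/c, so the strains overlapped there too. None of the 5 rows alone separated the 6 libraries of each strain.

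The other junction and adhesion genes were not called between strains. Averaged differences were -0.20 for Pecam1, -0.15 for Esam, an immunoglobulin-type adhesion molecule, and -0.11 for Cdh5, the cadherin of endothelial adherens junctions (limma, adjusted p = 0.162, 0.269 and 0.554). Pecam1 was lower in the 3 BALB/c controls than in the 3 B6 controls and overlapped after CRS.

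Receptor genes showed both signs. Tie1, the orphan partner of the angiopoietin receptor Tek, was 3.03, 3.89 and 2.86 TPM in B6 controls and 3.07, 3.71 and 3.04 TPM in B6 CRS. In BALB/c it was 2.52, 1.64 and 2.25 TPM in controls and 2.16, 2.85 and 2.11 TPM after CRS. All 6 BALB/c libraries lay below all 6 B6 libraries, though the gap between 2.85 and 2.86 TPM was small and closed under both rescalings. The averaged difference was -0.40 (SE 0.12; limma, adjusted p = 0.0391). The call was lost under both rescalings (limma, adjusted p = 0.0605 and 0.0601), with no filter (0.0841) and with the highest row (0.0536). It was also lost in 9 of the 12 fits that left out 1 library. Tek itself differed by -0.10, and Ptprb, the phosphatase that restrains Tek signalling, by -0.13 (limma, adjusted p = 0.619 and 0.357).

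Kdr, the main signalling receptor for VEGF-A, had a value of the other sign. It was 2.16, 2.94 and 3.02 TPM in B6 controls and 3.69, 3.82 and 4.05 TPM in BALB/c controls, which did not overlap. After CRS it was 3.10, 2.68 and 3.52 TPM in B6 and 4.65, 4.40 and 3.10 TPM in BALB/c, which did. The averaged difference of 0.34 missed the threshold (SE 0.12; limma, adjusted p = 0.0614) and passed it under both rescalings (adjusted p = 0.0326 and 0.0346). Flt1, the decoy-type VEGF receptor, differed by -0.05, the TGF-beta co-receptor gene Eng by 0.11 and the calcitonin receptor-like partner gene Ramp2 by -0.22 (limma, adjusted p = 0.731, 0.488 and 0.162).

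Transporter genes all had averaged strain differences below 0, from -0.28 for the monocarboxylate transporter gene Slc16a1 to -0.01 for the thyroxine transporter gene Slco1c1, and 1 of 8 was called. Slco1c1 was above 0 under both rescalings and with its highest row alone. The summed TPM of the 8 genes was 167.5 to 182.9 in B6 and 143.2 to 164.7 in BALB/c, which did not overlap, but after median-of-ratios scaling the sums of 152.4 to 172.2 and 136.6 to 166.8 did. The called gene was Slc2a1, encoding the GLUT1 glucose transporter of endothelium and astrocytes. It was 44.0, 42.7 and 42.5 TPM in B6 controls and 45.0, 48.7 and 40.8 TPM in B6 CRS, against 42.6, 32.1 and 38.7 TPM in BALB/c controls and 32.8, 35.6 and 38.3 TPM in BALB/c CRS. Strains overlapped in controls and not after CRS. The averaged difference of -0.26 (SE 0.08) stood at limma's threshold with an adjusted p of 0.049974, and it passed in 1 of 8 alternative settings and in 2 of the 12 fits that left out 1 library. The efflux pump genes Abcb1a and Abcg2 differed by -0.24 and -0.11, the lipid carrier gene Mfsd2a by -0.20 and the large neutral amino acid transporter gene Slc7a5 by -0.22 (limma, adjusted p = 0.104, 0.661, 0.212 and 0.179).

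Vwf (chromosome 6, 125552948 to 125686679) had the other large strain difference. Its TPM was 3.33, 4.45 and 3.66 in B6 controls and 4.14, 3.90 and 4.67 in B6 CRS. In BALB/c it was 2.15, 1.11 and 1.79 in controls and 2.30, 3.03 and 3.00 after CRS. All 6 BALB/c libraries lay below all 6 B6 libraries, and their mean was 55.4% of the B6 mean. The difference was -0.86 in controls (SE 0.18; limma, adjusted p = 0.0159), -0.48 after CRS (SE 0.18; limma, adjusted p = 0.124) and -0.67 averaged (SE 0.13; limma, adjusted p = 0.0040). The interaction, the CRS value minus that of the controls, was 0.38 (SE 0.25), and its 95% interval of -0.17 to 0.93 included 0. On the highest of its 11 rows, which held 52.7% of the TPM, the averaged difference was -0.44 (limma, adjusted p = 0.0777) and that in controls -0.44 (limma, adjusted p = 0.328). The averaged Vwf call held in the other 6 of 7 settings and in all 12 fits that left out 1 library. The call in controls held in 6 of 7 settings and in 10 of the 12 fits, lost without B6 control 3 (limma, adjusted p = 0.0727) or BALB/c control 9 (0.0581).

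Egfl7 was the 1 listed gene called higher in BALB/c. It was 35.5, 40.8 and 54.7 TPM in B6 controls and 40.9, 48.8 and 52.5 TPM in B6 CRS, and 61.3, 49.4 and 57.8 TPM in BALB/c controls and 66.9, 66.2 and 58.0 TPM in BALB/c CRS. In these deposited values control groups overlapped and CRS groups did not. Under both rescalings all 6 BALB/c libraries lay above all 6 B6 libraries. The averaged difference was 0.40 (SE 0.11; limma, adjusted p = 0.0276), and it passed in 5 of 8 alternative settings and in 5 of the 12 fits that left out 1 library. Egfl7 has 21 rows, the highest with 26.9% of its TPM, and its exons overlap those of Agpat2 on the other strand and of the microRNA gene Mir126a on its own, so its value is uncertain. The venous and capillary sialomucin gene Emcn differed by -0.23, Itm2a by -0.22 and Foxq1 by 0.23 (limma, adjusted p = 0.339, 0.0917 and 0.265).

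Mural genes gave 0 of 7 calls between strains in each of the 3 comparisons. Higd1b, a pericyte marker, differed by -0.44, and the channel subunit gene Abcc9 by -0.34 (limma, adjusted p = 0.0856 and 0.0539). Higd1b was called with its highest row alone (-0.59; limma, adjusted p = 0.0119) and without B6 control 9 (0.0299) or BALB/c CRS 13 (0.0393). Abcc9 was called without the trend, averaged (limma, adjusted p = 0.0143) and after CRS (0.0250). Abcc9 was 1.38, 1.51 and 1.45 TPM in B6 controls, 1.64, 1.86 and 1.54 in B6 CRS, 1.31, 0.978 and 1.17 in BALB/c controls and 1.03, 1.01 and 0.719 in BALB/c CRS. These 6 libraries of each strain did not overlap, as held for 4 of 32 listed genes (Ocln, Tie1, Vwf and Abcc9) and for 8.95% of all genes. Kcnj8, encoding the pore subunit that pairs with Abcc9, differed by -0.20, the aminopeptidase gene Anpep by -0.37 and Vtn by -0.17, while Rgs5 differed by 0.13 and Pdgfrb by 0.06 (limma, adjusted p = 0.27, 0.218, 0.222, 0.259 and 0.728). Within treatments, 12 of 32 genes did not overlap between strains in controls, where 22.9% of all genes did not, and 11 of 32 after CRS, where 29.3% did not.

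Correlations of the listed genes from library to library were close to those of all genes. After subtracting group means on the log2 scale, the median Pearson correlation over 496 pairs of listed genes was 0.154 across the 12 libraries, beside 0.155 over all pairs of genes tested. It was 0.188 among endothelial genes and 0.071 among mural genes. All these pairs share the same libraries and total. Of the listed genes, Vtn (0.636) and Pecam1 (0.601) had the highest correlation with Cldn5 and Slco1c1 (-0.69) the lowest. Outside the list, the closest were Foxf2 (0.956), Filip1l (0.949), Zfp800 (0.947), Zfp606 (0.922) and Gm45051 (0.921). B6 control number 3, the library with the highest Cldn5 value, had 25 of the 32 genes above its group mean, and its 4 smooth-muscle marker genes summed to 69.8 TPM against at most 20.4 TPM in the other B6 controls.

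Other genes of the barrier and vessel wall came from 8 lists of 114 names (junction partners, barrier WNT signalling, endothelial transcription factors, angiogenic ligands, other transporters, basement membrane, leak and activation markers, other mural genes), of which 102 passed the filter. None was called in any restraint comparison. Averaged over treatments, 3 were called higher in BALB/c and 18 lower, where 4.05% of all genes were called higher and 14.3% lower. With median-of-ratios scaling the counts were 14 higher and 12 lower, so the balance of directions depended on the scaling. The genes named below were called in all 8 alternative settings and kept their sign.

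Plvap, the diaphragm protein of fenestrated and leaky endothelium, was called higher in BALB/c. Its TPM was 4.65, 4.01 and 6.10 in B6 controls and 4.37, 6.18 and 4.65 in B6 CRS, against 12.8, 6.64 and 11.2 in BALB/c controls and 13.8, 12.0 and 11.3 in BALB/c CRS. All 6 BALB/c libraries lay above all 6 B6 libraries, and the averaged difference was 1.02 (SE 0.15; limma, adjusted p = 0.000928). The 6 libraries of each strain did not overlap, in either direction, for 8.95% of all genes. The WNT target and inhibitor gene Apcdd1 was also higher, at 19.8 ± 1.19 TPM in BALB/c and 11.4 ± 2.03 TPM in B6 (SD, n = 6; limma, adjusted p = 0.00068).

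Lower in BALB/c was Tspan12, the co-receptor of norrin signalling at the retinal and brain endothelium, at 7.05 ± 0.669 TPM against 13.2 ± 2.70 TPM in B6 (SD, n = 6; limma, adjusted p = 0.00152). Apln, the ligand apelin made by endothelial tip cells, was 4.68 ± 0.705 TPM against 10.0 ± 2.17 TPM (SD, n = 6; limma, adjusted p = 7.24e-05). Epas1, the hypoxia-inducible factor abundant in endothelium and astrocytes, was 29.8 ± 3.91 TPM against 45.1 ± 3.90 TPM (SD, n = 6; limma, adjusted p = 0.00185). For Apln, Tspan12 and Epas1 the 6 BALB/c libraries lay below the 6 B6 libraries, as they did for 6.94% of all genes. Vcam1, a leukocyte adhesion molecule, was 8.72 ± 0.452 TPM against 12.4 ± 1.44 TPM, and Mcam, a mural and endothelial adhesion molecule, 5.25 ± 1.59 TPM against 15.3 ± 6.50 TPM (SD, n = 6; limma, adjusted p = 0.00473 and 0.00704). Of 13 junction partners, 5 were called lower and 0 higher, among them the catenin gene Ctnna1 and the junctional adhesion molecule gene Jam2 (differences of -0.51 and -0.39; limma, adjusted p = 0.0048 and 0.0153).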

How the data were processed

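Per the labels' protocols, total RNA was made into stranded poly(A) libraries and sequenced as 150 bp read pairs to about 6 Gb per sample. Per the submitters' processing notes, cutadapt 2.9, Salmon (version not given) and the mouse build GRCm38 were used; the annotation and strand setting are not given in the sources used here. GRCm38 is a B6 sequence, and what that means for BALB/c reads was not tested. The authors deposited TPM for 147902 transcript rows with gene names and no transcript identifiers, so count tests were not applicable and depth is unknown.

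Rows were summed per name, a gene was kept if 3 or more of the 12 libraries had 1 TPM or more (16423 genes), and log2(TPM + 1) was fitted with limma 3.58.1 in R 4.3.3 (4 group means, 8 residual degrees of freedom, empirical Bayes with trend, Benjamini-Hochberg adjustment over all genes tested). A fold on this scale understates changes of low genes. All 7 contrasts used all libraries, which share 1 estimate of spread. The fit was tested on simulated data. The labels number the samples of a group without stating that each is a separate mouse, so p-values measure the spread between these samples, which may be technical. Values without a test are TPM, mean and SD.

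The listed genes and the other gene lists were chosen with earlier results of these data known. Genes with per-library values are Cldn5, called genes and those the text singles out after their values were seen (Kdr, Slco1a4, Pecam1, Abcc9); other list genes are named when called or abundant, and neighbours of Cldn5 are the 5 with the highest correlation. Alternatives were a pseudocount of 0.1, no filter, a mean of at least 5 TPM, median-of-ratios scaling, rescaling without mitochondrial, Bc1 and 18S RNA, the highest row per name, no trend, a replicate block, and leaving out each library. Antisense and overlapping exons were read from GENCODE M21: 6 listed genes have exons that overlap others on the opposite strand (Eng, Abcb1a, Slc2a1, Egfl7, Foxq1 and Abcc9), and Ramp2 shares exonic sequence with Vps25.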

Additional observations from a re-analysis of the deposited data

How the results depend on the processing

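The count of listed genes called was 0 for the 4 restraint and interaction comparisons under all alternatives run. Between strains in controls, where the count was 2, it was 1 with no filter, 0 with a mean of at least 5 TPM, 0 with the highest row per name and 1 with the replicate block. After CRS, where it was 1, it was 0 with no filter, 0 with a mean of at least 5 TPM, 2 without the trend and 0 with the replicate block. With the highest row per name it stayed at 1, but the gene called was Slc2a1 (limma, adjusted p = 0.0214) in place of Ocln. Averaged over treatments, where it was 5, it was 2 with no filter, 1 with a mean of at least 5 TPM, 2 with the highest row per name and 3 with the replicate block. A mean of at least 5 TPM leaves out 13 of the 32 genes, Ocln, Vwf and Tie1 included. Leaving out 1 library at a time gave 0 to 4 in controls, 0 to 1 after CRS and 2 to 6 averaged. In controls the count was 0 without B6 control 3, 4 without B6 control 9 and 1 without BALB/c control 9 or 10. After CRS it was 0 without B6 control 3, BALB/c control 5, any B6 CRS library, or BALB/c CRS 12 or 13. Averaged, it was 2 without B6 control 3, B6 CRS 12, BALB/c control 10 or BALB/c CRS 12, and 3 without B6 control 2, B6 CRS 13 or BALB/c control 9; Ocln and Vwf were called in each of the 12 fits. Of the differences called with the deposited values, 1 changed sign, Ocln in controls with the highest row, at 0.19; the cause was not tested. Over the listed genes, comparisons and alternatives, an uncalled difference changed sign 244 times. Replicate numbers 9, 12 and 13 occur in both strains but belong to different mice. Deviations of same-numbered libraries correlated at -0.24, -0.03 and -0.04. The labels do not say whether same-numbered samples shared any handling, and these correlations cannot exclude it. TPM keeps no depth, so counting error behind low genes such as Foxq1 cannot be stated.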
